A study of Mus musculus with 18 samples.

Results

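Langerhans cells are the dendritic cells of the epidermis, and 10 mouse genes that serve them or the MHC class II pathway are described here: Cd207, Mfge8, Csf1r, Adgre1, H2-Aa, H2-Ab1, H2-Eb1, H2-DMa, Cd74 and Ctss. They were chosen by name, and 9 of the 10 were measured, each by 1 row of the array table, among 22180 genes named by 23521 rows. The row that carries Cd74 is annotated to Cd74 and a microRNA together, so it was not used. The arrays hold RNA from epidermal sheets of the shaved back skin of female mice on a B6;129 background. The mice were either AhR-/- (here KO), of the line B6.129-AhRtm1Bra/J, or AhR+/+ littermates (here WT), with 3 arrays for each of 6 groups: KO and WT unstressed at 0 h, and KO and WT at 6 h and at 24 h after tape stripping with an adhesive film. The null allele is carried by every cell of the animal, so an effect within Langerhans cells and one within keratinocytes, the main cells of the sheet, cannot be told apart. Ages are not given in the labels.

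The aryl hydrocarbon receptor (AhR) is a transcription factor that is activated by small molecules and that both Langerhans cells and keratinocytes express. Langerhans cells sit among the keratinocytes, take up antigen and dying cells, and carry peptides on MHC class II molecules to the lymph node. They depend on the kinase receptor encoded by Csf1r, whose ligand IL-34 is made by keratinocytes. MHC class II chains are assembled with the invariant chain, which cathepsin S degrades before H2-DM loads a peptide, and their genes are switched on together by the coactivator CIITA acting through a conserved pair of promoter elements, the X and Y boxes.

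The shared element pair can be read in the promoters of MHC class II genes that are measured here, and these are shown because H2-Aa and H2-Eb1 varied together across the arrays. Promoter windows of RefSeq on GRCm38.p6, from 250 bases before to 50 bases after the start of the gene, were matched for 6 of the members. The letters GCAAC, of the X box, and ATTGG, of the Y box, are in capitals and each sequence runs in the direction of the gene. H2-Aa lies on the minus strand at chr17:34287774-34288073 and H2-Eb1 on the plus strand at chr17:34305617-34305916.
H2-Aa: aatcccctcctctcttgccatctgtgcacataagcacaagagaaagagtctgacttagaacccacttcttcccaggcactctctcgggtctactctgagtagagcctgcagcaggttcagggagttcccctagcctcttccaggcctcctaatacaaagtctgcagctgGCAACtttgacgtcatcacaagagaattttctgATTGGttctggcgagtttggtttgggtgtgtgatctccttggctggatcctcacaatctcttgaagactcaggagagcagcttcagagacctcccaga
H2-Eb1: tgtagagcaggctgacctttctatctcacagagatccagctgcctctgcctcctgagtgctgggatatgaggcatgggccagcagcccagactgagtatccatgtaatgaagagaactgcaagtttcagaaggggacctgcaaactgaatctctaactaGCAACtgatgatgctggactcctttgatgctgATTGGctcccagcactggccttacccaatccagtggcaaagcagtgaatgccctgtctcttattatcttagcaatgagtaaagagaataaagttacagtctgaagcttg
The letters are 28 bases apart in H2-Aa, where they begin 81 and 48 bases before the start, and 27 bases apart in H2-Eb1, where they begin 91 and 59 bases before it. GCAAC followed by ATTGG with 20 to 40 bases between, on either strand, is found in 1.01% of 32851 promoter windows of this length, while GCAAC alone is in 35.2% and ATTGG alone in 37.4%. That range of distances was chosen after both sequences had been read. The pair is also in the windows of H2-Eb2, H2-Oa and H2-Ob, and these letters at this distance are not in those of H2-DMa, H2-DMb1, H2-DMb2, Ctss, Cd207 and Mfge8.

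The window of Mfge8 is shown because Mfge8 was the member that differed between genotypes, and the letters GCGTG, the core that AhR binds with its partner ARNT, are in capitals. It lies on the minus strand at chr7:79149011-79149310.
Mfge8: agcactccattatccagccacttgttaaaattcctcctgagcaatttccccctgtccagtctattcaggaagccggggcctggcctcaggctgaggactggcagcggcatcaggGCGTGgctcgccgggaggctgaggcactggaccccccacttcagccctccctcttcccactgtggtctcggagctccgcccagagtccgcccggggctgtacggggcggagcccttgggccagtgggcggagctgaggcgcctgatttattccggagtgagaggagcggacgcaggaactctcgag
These letters begin 136 bases before the start of Mfge8 and are in 32.4% of all windows on either strand, so the match is a description and not a binding site. They are not in the windows of Cd207, Ctss, H2-Aa, H2-Eb1 and H2-DMa.

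Every value below is a deposited number taken as log2, relative to the median of its row over the 18 arrays, so it compares arrays within a gene and gives no level of a gene or order between genes. Signal over background cannot be read from such values, and the presence of keratinocyte or Langerhans cell markers in the sheets cannot be checked by level. The row of Ahr was lower in KO than in WT at each time, with no overlap between the groups. Its values were -0.13, 0.04 and -0.02 in KO and 0.63, 0.16 and 0.07 in WT at 0 h. At 6 h they were -0.63, -0.65 and -0.77 in KO and 0.06, 0.58 and 0.64 in WT, and at 24 h -0.59, -0.74 and -0.64 in KO and -0.01, 0.12 and 0.01 in WT. Averaged over times, Ahr differed by -0.71 (SE 0.0827, adjusted p = 0.000939); whether its probes lie in the deleted part is not given. A 4-digit number whose meaning the labels do not state is given with each sample, and it is below 3000 for 7 arrays (KO 1, WT 2 and WT 3 of 0 h, and arrays 2 and 3 of each genotype at 6 h) and from 3000 up for 11. The array SD over all rows ran from 0.134 to 0.222, and the widest were KO 3 and WT 1 of 0 h.

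Mfge8, which encodes the secreted bridge between dying cells and the integrins of the cell that engulfs them, was the member whose difference between genotypes passed the test. In unstressed epidermis it stood at -1.07, -1.58 and -1.50 in KO, against 0.49, 0.68 and 0.73 in WT. All 3 KO arrays were far below all 3 WT arrays. The difference was -2.01 (95% interval -2.46 to -1.57, SE 0.21, adjusted p = 0.000606), which is 4.04-fold lower in KO. In bulk RNA of an epidermal sheet, fewer cells of a type and less RNA per cell cannot be told apart. Within label numbers below 3000, with 1 KO and 2 WT arrays, the difference was -1.77, and within numbers from 3000 up, with 2 KO arrays and 1 WT array, it was -2.02.

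At 6 h, Mfge8 had values of 0.18, -0.21 and -0.31 in KO, against 0.37, -0.01 and 0.76 in WT, and the groups overlapped. The difference of -0.48 (SE 0.21) had an adjusted p = 0.269. At 24 h the values were -0.24, -0.65 and -0.63 in KO, against 0.69, 0.01 and 0.31 in WT. The groups were apart again, but the difference of -0.84 (95% interval -1.29 to -0.39) had an adjusted p = 0.407. Averaged over the 3 times, the difference was -1.11 (SE 0.121, adjusted p = 0.000509), or 2.16-fold lower in KO.

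**Figure D1:**
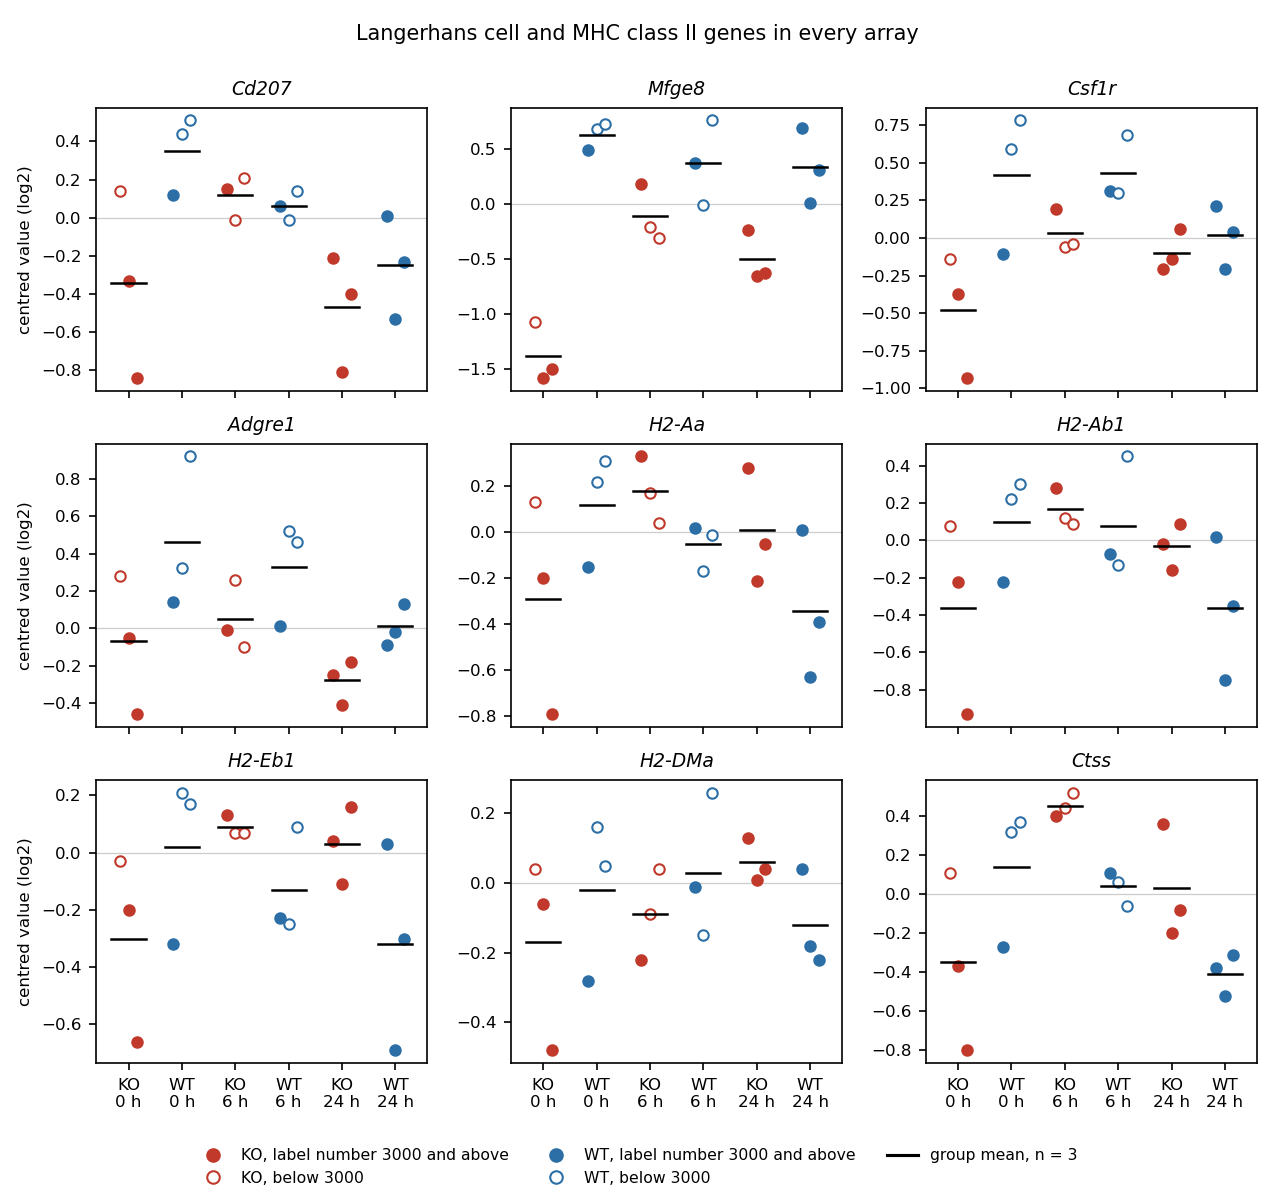
Centred log2 value (vertical axis) of each of the 9 measured members in every array, by genotype and time; points are arrays, filled for label numbers from 3000 up and open below, and bars are means of 3 arrays. The 3 KO arrays of 0 h lie between -1.58 and -1.07 for Mfge8, below the WT arrays at 0.49 to 0.73, while the MHC class II genes of the same arrays spread widely within each genotype.

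Of the 9 measured members, 1 passed as lower in KO at 0 h and 0 as higher, where 0.0978% of all rows passed and 0.085% passed as lower. Averaged over times, 1 passed as lower, where 0.374% of all rows passed. At 0 h all 9 differences were below 0, with a median of -0.49, against -0.0034 over all rows tested. They come from the same arrays, over which many of the members varied together, so their signs are not separate results. The values of 2 members, Mfge8 and Csf1r, did not overlap at 0 h and were lower in KO, as for 7.71% of all rows. At 6 h 0 members passed in limma (1 at an unadjusted p under 0.05), where 2.18% of all rows passed and 15.8% did so unadjusted, and the median of the members was 0.05. At 24 h 0 passed (1 unadjusted), where 0.017% of all rows passed and 6.71% did so unadjusted, and the median was 0.18.

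The other Langerhans cell genes had lower values in unstressed KO skin without passing the test. Csf1r, the receptor of IL-34, had values of -0.14, -0.37 and -0.93 in KO, against -0.11, 0.59 and 0.78 in WT. The highest KO array lay just below the lowest WT array, and the difference was -0.90 (95% interval -1.37 to -0.43, adjusted p = 0.191). Without WT array 1 it was -1.16 (adjusted p = 0.0302), and averaged over times it was -0.47 (adjusted p = 0.13), or -0.56 without that array (adjusted p = 0.0416). That array was the WT array nearest to KO. With any other single array left out, Csf1r passed in neither comparison. Within the lower and higher label numbers the difference at 0 h was -0.83 and -0.54. The mean of Csf1r was 0.03 in KO and 0.43 in WT at 6 h, without overlap, and -0.10 and 0.02 at 24 h, with overlap. Neither passed.

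Cd207, which encodes langerin, the lectin that forms Birbeck granules and marks Langerhans cells, had values of 0.14, -0.33 and -0.84 in KO at 0 h, against 0.12, 0.44 and 0.51 in WT. One KO array lay within the range of WT, and the difference of -0.70 (95% interval -1.14 to -0.25) had an adjusted p = 0.287. At 6 h Cd207 differed by 0.05 (95% interval -0.39 to 0.50), with all 6 arrays between -0.01 and 0.21. At 24 h the KO arrays had -0.21, -0.81 and -0.40 and the WT arrays 0.01, -0.53 and -0.23, and the difference of -0.23 had an adjusted p = 0.898. Adgre1, the gene of an adhesion receptor used as a marker of macrophages and Langerhans cells, had -0.46 to 0.28 in KO and 0.14 to 0.92 in WT at 0 h, a difference of -0.54 (adjusted p = 0.463). Its mean was 0.05 in KO and 0.33 in WT at 6 h, with overlap, and -0.28 and 0.01 at 24 h, without overlap. Neither passed.

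**Figure D2:**
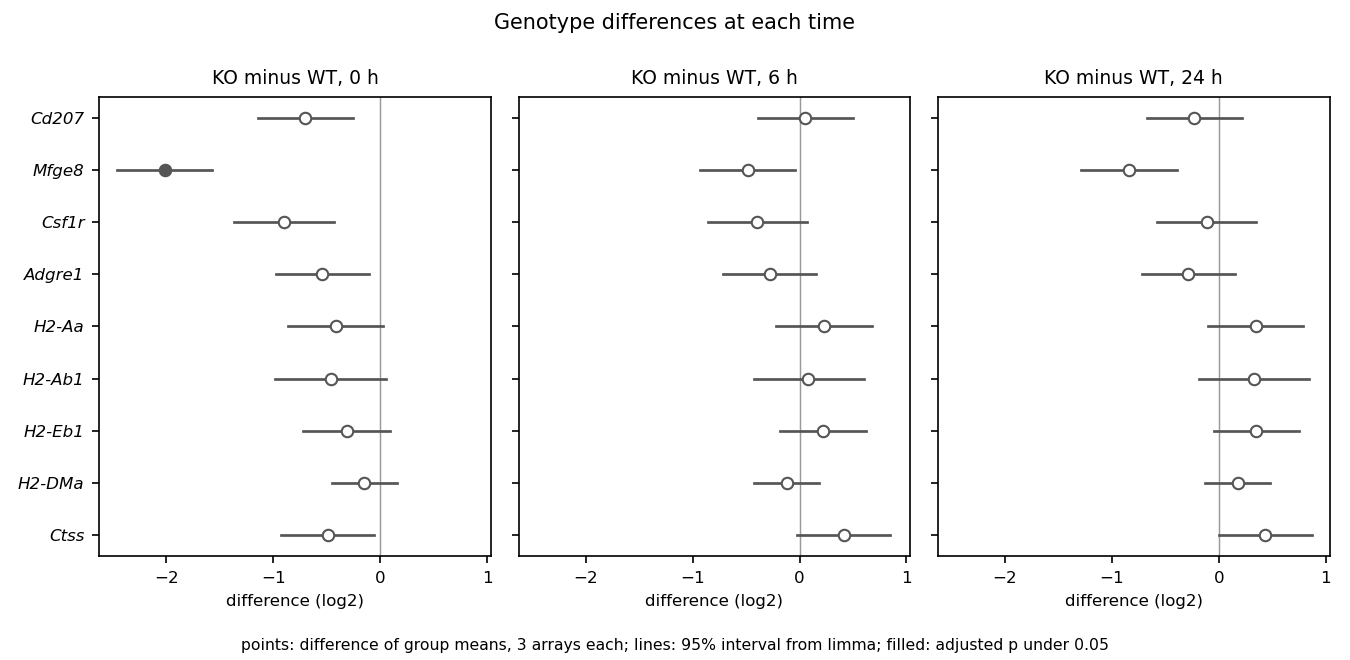
Difference between KO and WT (log2, horizontal axis) for each member at 0, 6 and 24 h, with 95% intervals from limma; filled points had an adjusted p under 0.05. Mfge8 at 0 h, at -2.01, is the filled point, and the MHC class II genes and Ctss lie below 0 at 0 h and, with the exception of H2-DMa at 6 h, above 0 at 6 h and 24 h.

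None of the classical MHC class II genes passed between genotypes at any time. H2-Aa, the alpha chain of I-A, had values of 0.13, -0.20 and -0.79 in KO at 0 h, against -0.15, 0.22 and 0.31 in WT. The lowest array was KO 3 and the groups overlapped, with a difference of -0.41 (95% interval -0.86 to 0.03, adjusted p = 0.648). H2-Ab1, the beta chain of I-A, differed by -0.46 (adjusted p = 0.662), and H2-Eb1, the beta chain of I-E, by -0.31 (adjusted p = 0.737). At 6 h H2-Aa had 0.33, 0.17 and 0.04 in KO, all above 0.02, -0.17 and -0.01 in WT. The groups of H2-Ab1 and of H2-Eb1 overlapped at 6 h. At 24 h the 3 genes were nominally higher in KO, by 0.35, 0.33 and 0.35, with adjusted p = 0.811, 0.854 and 0.766. The chaperone chain H2-DMa, which helps exchange the invariant chain fragment for peptide, differed by -0.15 at 0 h, -0.12 at 6 h and 0.18 at 24 h (adjusted p = 0.893, 0.762 and 0.873).

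The array-to-array spread of the MHC class II genes moved with the label number at 0 h. The mean of H2-Aa, H2-Ab1 and H2-Eb1 was 0.06, -0.21 and -0.79 in KO and -0.23, 0.22 and 0.26 in WT, so the highest KO array and the lowest WT array were the ones whose label number differs from that of the others in their genotype. Within the lower numbers the KO value minus the WT value was -0.18, and within the higher ones -0.27. What this number marks was not tested.

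Ctss, which encodes cathepsin S, the protease that degrades the invariant chain, did not pass between genotypes at any time. Its values at 0 h were 0.11, -0.37 and -0.80 in KO, against -0.27, 0.32 and 0.37 in WT, with overlapping groups and a difference of -0.49 (adjusted p = 0.512). At 6 h the KO arrays had 0.40, 0.44 and 0.52, all above the WT arrays at 0.11, 0.06 and -0.06, and the difference of 0.42 (95% interval -0.02 to 0.85) had an adjusted p = 0.343. Within the 4 arrays of 6 h with lower label numbers it was 0.48, and within the higher numbers, with 1 KO and 1 WT array, it was 0.29. At 24 h the KO arrays had 0.36, -0.20 and -0.08 and the WT arrays -0.38, -0.52 and -0.31, a difference of 0.43 with an adjusted p = 0.739.

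After tape stripping, Mfge8 and Ctss rose in KO epidermis, and no member passed the test in WT. In KO at 6 h against 0 h, Mfge8 was higher by 1.27 (SE 0.21, adjusted p = 0.00944), or 2.4-fold, and Ctss by 0.81 (SE 0.204, adjusted p = 0.0361), or 1.75-fold. In both genes the 3 arrays of 6 h lay above the 3 arrays of 0 h. At 24 h against 0 h in KO, Mfge8 was higher by 0.87 (SE 0.21, adjusted p = 0.0179), and Ctss by 0.38 (adjusted p = 0.291), which did not pass. These responses share the KO arrays of 0 h with the difference between genotypes in unstressed skin, so they are not independent of it.

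The rise of Ctss at 6 h did not pass without KO array 2 or 3 of 0 h (0.80 and 0.58, adjusted p = 0.109 and 0.151) or without any 1 of the KO arrays of 6 h (0.83, 0.82 and 0.78, adjusted p = 0.0538, 0.0814 and 0.0987). The rise of Mfge8 at 6 h passed whichever single array was left out, while its rise at 24 h did not pass without KO array 2 or 3 of 0 h or KO array 1 of 24 h (0.78, 0.82 and 0.74, adjusted p = 0.0739, 0.0731 and 0.0797). Within label numbers below 3000 the change at 6 h in KO was 0.81 for Mfge8 and 0.37 for Ctss, and within numbers from 3000 up it was 1.71 and 0.99.

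Of the 9 members, 2 passed as higher at 6 h against 0 h in KO, where 4.98% of all rows passed and 1.57% passed as higher. All 9 changes were above 0, with a median of 0.46, against 0.018 over all rows. The changes share the KO arrays of 0 h with the differences at 0 h, so their signs are not separate results. At 24 h 1 passed as higher in KO, where 9.56% of all rows passed and 3.09% passed as higher. In WT 0 members passed at 6 h in limma (0 unadjusted), where 0% of all rows passed and 4.62% had an unadjusted p under 0.05. At 24 h in WT 0 members passed in limma (4 unadjusted), where 0.0298% of all rows passed and 12.5% did so unadjusted. All 9 changes at 24 h in WT were below 0, from -0.60 for Cd207 to -0.10 for H2-DMa, with a median of -0.46, against 0.012 over all rows. Many of the members varied together, so these signs are not separate results either.

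The WT values at 24 h were lower than at 0 h without overlap for 3 of the members, Cd207, Ctss and Adgre1, as for 8.43% of all rows. Cd207 had 0.01, -0.53 and -0.23 in WT at 24 h, against 0.12, 0.44 and 0.51 at 0 h, a change of -0.60 (95% interval -1.05 to -0.16, adjusted p = 0.229). Ctss had -0.38, -0.52 and -0.31 at 24 h, against -0.27, 0.32 and 0.37 at 0 h, a change of -0.55 (adjusted p = 0.269). H2-Aa had 0.01, -0.63 and -0.39 at 24 h, against -0.15, 0.22 and 0.31 at 0 h, and the groups overlapped at a change of -0.46 (adjusted p = 0.376). All arrays of 24 h have label numbers from 3000 up, and within those numbers, where WT keeps 1 array at 0 h, the changes were -0.36 for Cd207, -0.14 for Ctss and -0.19 for H2-Aa.

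**Figure D3:**
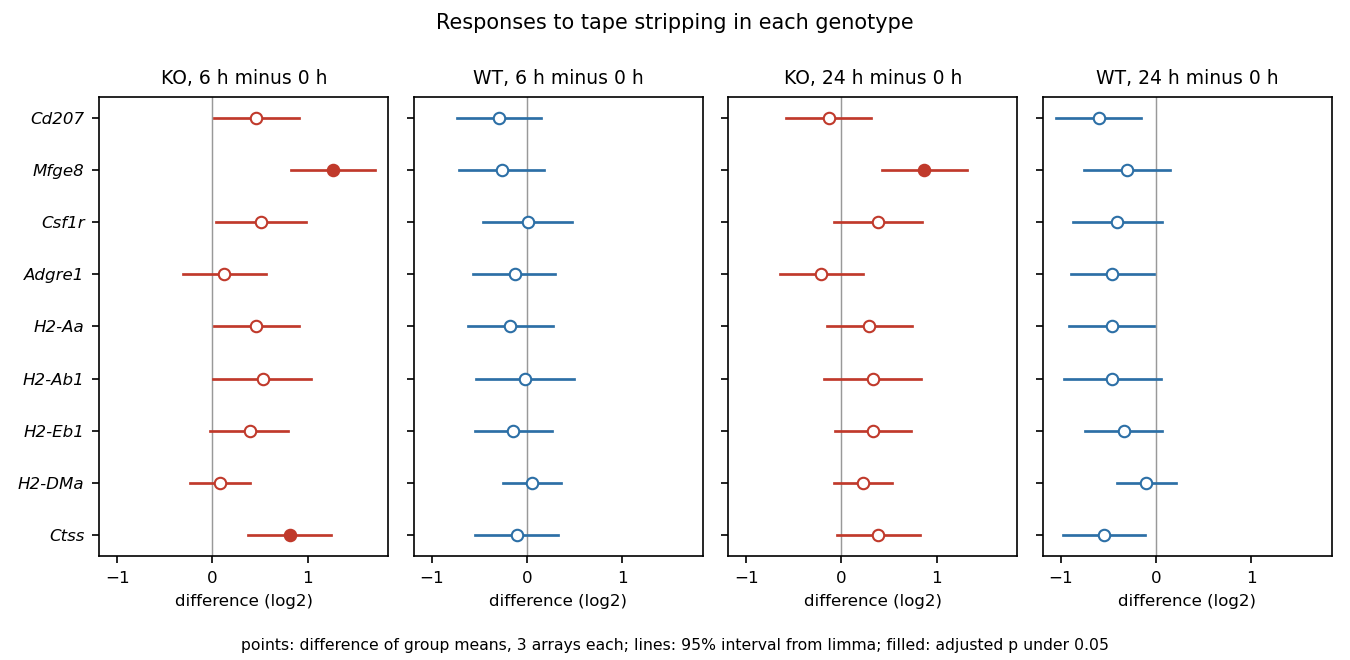
Change from 0 h (log2, horizontal axis) for each member at 6 h and 24 h in KO and in WT, with 95% intervals from limma; filled points had an adjusted p under 0.05. In KO the filled points are Mfge8 (1.27) and Ctss (0.81) at 6 h and Mfge8 (0.87) at 24 h, and no WT point is filled.

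The response to tape stripping at 6 h differed between genotypes for Mfge8. Its change was 1.27 in KO and -0.26 in WT, and the difference between these changes was 1.53 (95% interval 0.90 to 2.16, SE 0.297, adjusted p = 0.0397). It passed when each of 8 of the 18 arrays was left out in turn and did not pass for the other 10: arrays 2 and 3 of both genotypes at 0 h, all KO arrays and WT array 2 of 6 h, and KO array 2 and WT array 3 of 24 h. Over those 10 the adjusted p ran up to 0.113. The estimate ran from 1.14 to 1.84 over all alternatives. For Ctss the difference was 0.91 (adjusted p = 0.156), for H2-Aa 0.64 (adjusted p = 0.373) and for Cd207 0.75 (adjusted p = 0.267), which did not pass. Without WT array 1 of 0 h, which had the lowest Ctss value of its group, the value for Ctss was 1.11 (adjusted p = 0.0396).

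Of the 9 members, 1 passed in the difference of 6 h responses, as 0.731% of all rows did. All 9 differences were above 0, with a median of 0.55, against 0.01 over all rows. At 24 h 0 passed in limma (6 unadjusted), where 0% of all rows passed and 9.2% had an unadjusted p under 0.05. The 9 differences at 24 h ran from 0.25 for Adgre1 to 1.17 for Mfge8, with a median of 0.76, against 0.0032 over all rows. Differences of responses use the same arrays of 0 h at both times, so the shared signs are not separate results.

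Across the 18 arrays the classical MHC class II genes varied together, most closely H2-Ab1 and H2-Eb1. H2-Ab1 and H2-Eb1 had a Pearson r of 0.94 and a Spearman rho of 0.92 (permutation p = 1e-05 for both, the smallest that the permutations can give, with 36 pairs of members computed and adjusted p = 9e-05 and 0.00036). Without the 2 arrays farthest from the median r was 0.86, and it was 0.78 among the 7 arrays with lower label numbers and 0.95 among the 11 with higher ones. H2-Aa had an r of 0.90 with each of H2-Ab1 and H2-Eb1 (permutation p = 1e-05 and 2e-05, adjusted p = 9e-05 and 0.000144) and a rho of 0.82 and 0.78 (permutation p = 7e-05 and 0.00026, adjusted p = 0.00084 and 0.00187). Without 2 arrays r was 0.75 and 0.76, among the lower label numbers 0.47 and 0.81, and among the higher ones 0.94 and 0.88. Mfge8 and H2-Aa had an r of 0.40 and a rho of 0.33 (permutation p = 0.102 and 0.184, adjusted p = 0.119 and 0.214), and r was 0.07 without those 2 arrays and 0.20 and 0.40 within the number classes. Mfge8 and Csf1r had an r of 0.81 and a rho of 0.79 (permutation p = 1e-05 and 0.00019, adjusted p = 9e-05 and 0.00171), with 0.70 without 2 arrays and 0.94 and 0.77 within the classes. Differences between groups enter each of these values. With the group means removed, r was 0.97 for H2-Ab1 and H2-Eb1 and 0.58 for Mfge8 and Csf1r, and it was 0.74, 0.73 and 0.68 for Mfge8 with H2-Aa, H2-Ab1 and H2-Eb1, above the values with the means kept. For Ctss it was 0.82, 0.63 and 0.64 with the same 3 genes, against 0.88, 0.77 and 0.76 with the means kept.

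Of all named genes, those whose values over the 18 arrays, with the group means kept, were most like the mean of H2-Aa, H2-Ab1 and H2-Eb1 were Napsa (r = 0.89), Tyrobp (0.84), Ctss (0.83), Cavin3 (0.82) and H2-DMb2 (0.81). Most like Cd207 were Dpysl2 (0.83), Cd53 (0.81), Fcer1g (0.80), P2ry10 (0.79) and Lcp1 (0.78). Most like Mfge8 were Cd3e (0.84), Prf1 (0.83), Tnfaip2 (0.82), Il2rb (0.82) and Ehd4 (0.81), of which Cd3e belongs to the T cell receptor complex, Il2rb is a cytokine receptor chain and Prf1 is the pore protein of cytotoxic lymphocytes.

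Some markers of epidermal T cells, which share the sheet with Langerhans cells, were lower in KO as well. Of 12 measured, 3 passed as lower in KO at 0 h (Cd3e, Trgv5 and Il2rb), 4 at 6 h (these and Cd7) and 1 at 24 h (Trgv5), and none passed as higher at any time. Of all rows 0.0978%, 2.18% and 0.017% passed at these times. At 0 h neither Cd3e nor Il2rb passed without KO array 2 or 3 or WT array 2 or 3 of 0 h (adjusted p = 0.0665 to 0.103). The differences of 11, 10 and 10 of the 12 were below 0 at 0, 6 and 24 h, with medians of -0.68, -0.58 and -0.49, and Trgv5, the variable segment of the epidermal gamma delta T cell receptor, differed by -3.11, -2.76 and -2.97. The differences above 0 were 0.15 for Gzmb at 0 h, 0.73 for Thy1 and 0.05 for Cd3d at 6 h, and 0.06 for Thy1 and 0.02 for Klrk1 at 24 h. Thy1, a surface glycoprotein of T cells, had 1.05, 0.85 and 0.53 in KO at 6 h, against 0.53, -0.44 and 0.16 in WT (adjusted p = 0.0885), and it rose by 1.17 in KO at 6 h against 0 h (adjusted p = 0.0119). The mean of the list ran from -0.80 to -0.14 in KO and from 0.19 to 0.53 in WT at 0 h. At 6 h it was -0.31 to -0.15 in KO and 0.40 to 0.50 in WT. Cd3e, for one, had -0.48, -0.62 and -1.09 in KO at 0 h, against 0.59, 1.11 and 0.93 in WT. At 6 h Cd3e differed by -1.28 (adjusted p = 0.0152), or by -1.30 and -1.16 without KO or WT array 3 of 6 h (adjusted p = 0.071 and 0.0913). The part of T cells in the difference of Mfge8 was not tested.

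For genes that are not members, at most 4 that passed per list and comparison were followed with single arrays left out. That gave 59 calls, fewer than all that passed, and 18 of the 59 passed whichever array was left out. Averaged over times these were Ltc4s, Cd8a, Krt1, Cd3e, Il2rb, Cd7 and Trgv5. Trgv5 was also kept between genotypes at each time. In KO, Il34, Itgb5 and Thy1 were kept at 6 h, and Lamtor2, Erap1, Canx, S100a9 and Krt14 at 24 h.

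Among the other genes of Langerhans cell identity, Ltc4s differed between genotypes. Of 15 measured genes of the list that are not members, 0 passed between KO and WT at 0 h in limma (5 unadjusted), with a median of -0.10. The share of all rows at that unadjusted level is not given for 0 h. Of the 15 differences, 12 were below 0 and 3 above. Cd24a did not pass, and its more variable row had 0.34, 0.14 and 0.11 in KO at 0 h, against -0.19, -0.30 and -0.37 in WT. At 6 h that row had 0.64, 0.35 and 0.74 in KO, against 0.06, -0.03 and -0.35 in WT. Its other row overlapped at 0 h. Ltc4s, which makes the leukotriene that helps dendritic cells leave the skin, passed as lower in KO at 6 h and averaged over times. Its values were -0.13, -0.17 and -0.26 in KO and 0.13, 0.03 and 0.30 in WT at 0 h. At 6 h they were -0.03, -0.15 and -0.12 in KO and 0.31, 0.34 and 0.41 in WT, and at 24 h -0.06, -0.11 and -0.12 in KO and 0.08, 0.31 and 0.36 in WT. The groups did not overlap at any time, and the averaged difference was -0.38 (SE 0.0445, adjusted p = 0.000939), smaller than that of Mfge8 but with less spread. At 6 h the difference of -0.45 (adjusted p = 0.0143) did not pass without KO array 3 or WT array 2 or 3 of 6 h (-0.44, -0.46 and -0.42, adjusted p = 0.068, 0.0576 and 0.0874). In KO, Spi1, the myeloid transcription factor PU.1, rose by 0.51 at 6 h (adjusted p = 0.0318), and Ptprc, the leukocyte antigen CD45, fell by 0.77 at 24 h (adjusted p = 0.0236). Spi1 did not pass without array 2 or 3 of KO at 0 h or at 6 h (0.37 to 0.55), nor Ptprc without KO array 1 or 2 of 0 h or KO array 3 of 24 h (-0.70 to -0.60).

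Among 13 signals that maintain Langerhans cells, Il34 and Gas6 passed as lower in KO at 6 h, where 2.18% of all rows passed. Il34, the keratinocyte ligand of Csf1r, had -0.55, -0.46 and -0.82 in KO, against 0.08, -0.01 and 0.22 in WT, a difference of -0.71 (SE 0.122, adjusted p = 0.0143), or of -0.60 and -0.64 without KO or WT array 3 of 6 h (adjusted p = 0.0721 and 0.0885). All KO arrays lay below all WT arrays, while at 0 h the KO arrays had 0.10, 0.51 and 0.20 and the WT arrays -0.12, 0.01 and -0.26. Il34 fell by 0.88 in KO at 6 h against 0 h (adjusted p = 0.0059), and the difference between genotypes in this response was -1.10 (adjusted p = 0.0185). Gas6, the ligand of TAM receptors such as Axl, had -0.65, -0.26 and -0.47 in KO at 6 h, against -0.14, 0.38 and 0.56 in WT, a difference of -0.73 (adjusted p = 0.0381). It passed under 17 of 29 alternatives and not without any 1 of KO arrays 1, 2 and 3 and WT arrays 2 and 3 of 6 h, WT array 2 of 0 h or WT array 3 of 24 h (-0.83 to -0.58). At 24 h against 0 h in KO, 4 of these signals passed: Tgfb1, Bmp7 and Lamtor2 rose by 0.54, 0.47 and 0.50, and Cbfb fell by 0.40. Of all rows 9.56% passed in that comparison.

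**Figure D4:**
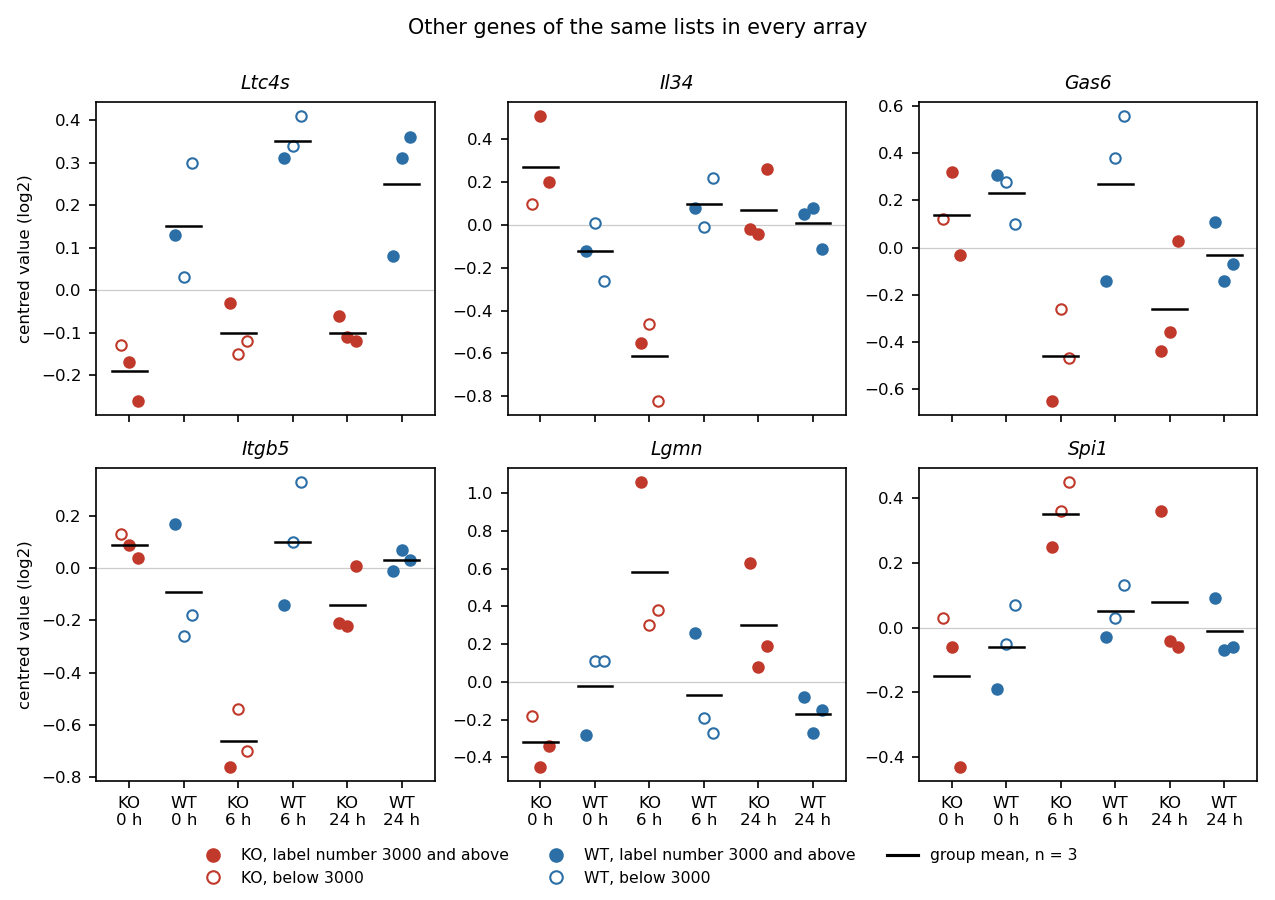
Centred log2 value (vertical axis) of 6 genes that are not members, in every array by genotype and time; points are arrays, filled for label numbers from 3000 up and open below, and bars are means of 3 arrays. Il34 and Itgb5 are lowest in the KO arrays of 6 h, and Ltc4s is lower in KO than in WT at each time.

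Of 16 further genes of MHC class II presentation that were measured, none passed between genotypes at 0, 6 or 24 h in limma (1, 7 and 2 unadjusted). Lgmn, a lysosomal endopeptidase that processes antigens, rose by 0.90 (SE 0.197, adjusted p = 0.0198) in KO at 6 h against 0 h, with values of 1.06, 0.30 and 0.38 at 6 h and -0.18, -0.45 and -0.34 at 0 h. Its rise did not pass without KO array 2 or 3 of 0 h (0.84 and 0.90, adjusted p = 0.0859 and 0.0691). Of 13 genes of MHC class I presentation, none passed between genotypes at 0, 6 or 24 h in limma (6, 2 and 5 unadjusted). For both lists, the share of all rows with an unadjusted p under 0.05 in limma was 15.8% at 6 h and 6.71% at 24 h. That share is not given for 0 h. In KO at 24 h against 0 h Erap1, the peptidase that trims class I peptides, fell by 0.98 (adjusted p = 0.000268), Canx by 0.44 and B2m by 0.30, and in WT Erap1 fell by 0.55 (adjusted p = 0.04999).

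Of 20 genes of apoptotic cell uptake, a process in which the product of Mfge8 acts, 4 passed between KO and WT at 6 h. Of all rows 2.18% passed there. Itgb5, a partner of the integrin that binds the product of Mfge8, had -0.76, -0.54 and -0.70 in KO, against -0.14, 0.10 and 0.33 in WT, a difference of -0.76 (SE 0.118, adjusted p = 0.0112), or of -0.75 and -0.64 without KO or WT array 3 of 6 h (adjusted p = 0.055 and 0.0716). The groups did not overlap, and the difference between genotypes in the 6 h response was -0.93 (adjusted p = 0.0297). Gas6 was lower too, while the complement chain C1qa was higher in KO by 0.59 (adjusted p = 0.0273) and the small GTPase Rac1 by 0.25 (adjusted p = 0.031). In KO at 6 h against 0 h, 5 genes of this list rose, Mfge8 and C1qb (0.92) among them, and 3 fell, including Itgb5 by 0.75. At 24 h 3 rose and 4 fell, among them Mertk by 0.54, Itgav by 0.48 and Anxa1 by 0.47. Of all rows 4.98% passed in KO at 6 h against 0 h and 9.56% at 24 h.

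Of 18 genes that mark Langerhans cell maturation and migration, 1 passed in any comparison, Fscn1, an actin-bundling protein of mature dendritic cells, which rose by 0.80 (adjusted p = 0.021) in KO at 24 h against 0 h. It did not pass without array 2 or 3 of KO at 0 h or array 1 or 3 of KO at 24 h (0.73 to 0.82). Among markers of other cells that a sheet could hold, 2 of 18 macrophage and monocyte markers passed in KO at 6 h against 0 h. C1qa and C1qb rose there by 0.54 and 0.92, while 4 of the 18 changes were below 0 and the median was 0.14. At 24 h 3 passed, these and Cd14, which rose by 0.74. Of all rows 4.98% and 9.56% passed. Without KO array 3 of 0 h, C1qa and C1qb did not pass at 6 h (adjusted p = 0.102 and 0.0636). Cd14 did not pass at 24 h without KO array 2 of 0 h (adjusted p = 0.0995). The mean of 18 macrophage and monocyte markers ran from 0.01 to 0.22 in KO at 6 h and from -0.16 to -0.01 in KO at 0 h. Their part in the rise of Mfge8 and Ctss was not tested. Of 9 dermal and conventional dendritic cell markers, 1 passed at 6 h, Cd8a, higher in KO by 0.57 (adjusted p = 0.0112), where 2.18% of all rows passed. Cd8a did not pass at 6 h without KO array 3 or WT array 2 or 3 of 6 h (adjusted p = 0.055, 0.0576 and 0.0788). Which cells of the sheet carry it was not tested. Of 8 neutrophil markers, 1 passed in KO at 24 h against 0 h, S100a9, which rose by 0.84. Of all rows 9.56% passed there. The changes of the 8 markers ran from 0.07 to 1.10, with a median of 0.17. None of 5 B cell and 7 dermal fibroblast markers passed in any of the 10 comparisons. Of 9 keratinocyte markers, Krt1 was lower in KO at 0 h, at -0.67 (adjusted p = 0.0212), and Krt15 at 6 h, at -0.61. Of all rows 0.0978% and 2.18% passed at these times. Krt1 at 0 h did not pass without KO or WT array 2 or 3 of 0 h (adjusted p = 0.0813 to 0.159). Krt15 did not pass without KO array 1 or 3 or WT array 2 or 3 of 6 h (adjusted p = 0.0541 to 0.129). In KO at 24 h against 0 h, where 9.56% of all rows passed, Krt14 and Krt1 rose by 0.56 and 0.34 and Trp63 fell by 0.37.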

How the data were processed

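The authors deposited 1 table of 33793 rows by 18 Affymetrix gene arrays, made from biotin-labelled cDNA per the labels' protocols. Its deposited values are taken as log2 from the numbers themselves (-6.4 to 4.3); a natural log cannot be told apart, and the median of 100% of rows over the arrays is 0 within 1e-06. Background correction, normalization and software were by methods not given in the sources used here. Signal over background is lost with the row medians, so no dim row was filtered, and the number of arrays limits the precision.

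Probe annotation gave 23521 rows 1 gene symbol, 1814 several and 8458 none, with symbols updated to RefSeq GRCm38.p6. Cd74 shares its row with Mir5107 and was left out, so the MHC class II mean uses H2-Aa, H2-Ab1 and H2-Eb1. Limma 3.58.1 in R 4.3.3 fitted 1 mean per group to 18 arrays (degrees of freedom: 12 residual, 2.76 prior). The moderated test, 2-sided, was run for 10 comparisons, with Benjamini-Hochberg adjustment over 23521 rows and a threshold of 0.05. An exact permutation test of 3 arrays against 3 cannot give a p below 0.1. The script was tested on simulated data. Each array was taken as 1 animal, since the series text speaks of littermates; where that fails, p-values measure technical spread.

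Members, lists and tests were chosen with earlier results of these data known. Genes named are the members, up to 4 genes per list and comparison that passed (2 by smallest p where none did), and the 5 genes most like Cd207, Mfge8 and the MHC class II mean. Ahr was named as the targeted gene. Alternatives were a second quantile normalization, arrays at one median, all rows, robust eBayes, array weights, the groups of a comparison alone, blocks for replicate and label number, each number class alone, and each array left out; leaving out both KO array 3 and WT array 1 of 0 h was chosen after seeing the data.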

Additional observations from a re-analysis of the deposited data

Results flagged for a closer look

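For 3 genes the change at 6 h against 0 h differed between KO and WT by the interaction test in limma. Mfge8 differed by 1.53, with a change of 1.27 in KO and -0.26 in WT. Il34 differed by -1.10 (SE 0.173, adjusted p = 0.0185), and it passed under 24 of 29 alternatives; without KO array 2 or WT array 3 of 0 h or WT array 3 of 6 h it was -0.98, -1.03 and -1.04 (adjusted p = 0.0637, 0.065 and 0.0519). Itgb5 differed by -0.93 (SE 0.167, adjusted p = 0.0297), and it passed under 18 of 29; it did not pass without any 1 of the KO arrays of 0 h, WT arrays 2 and 3 of 0 h, KO array 3 of 6 h or WT arrays 2 and 3 of 6 h (-0.96 to -0.82). Beyond array weights and leaving arrays out, groups of 3 arrays were not tested for single arrays that stand apart.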

How the results depend on the processing

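Of the calls on members, all kept their sign under every alternative. Mfge8 at 0 h passed under 26 of 29, averaged over times under 26 of 27, at 6 h against 0 h in KO under 28 of 29, at 24 h against 0 h in KO under 23 of 28 and in the difference of 6 h responses under 14 of 29; Ctss at 6 h against 0 h in KO passed under 18 of 29. With 3 arrays a group and fewer in a number class, these counts turn on single arrays, and a class alone leaves 1 array in some groups. The causes of the moves below were not tested.

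Members that passed in KO minus WT averaged over times were 2 with array weights, 0 within numbers from 3000 up and 2 without KO array 3 and WT array 1 of 0 h; at 0 h, 2 with array weights and 0 with the groups of the comparison alone or within either number class; at 6 h, 1 within numbers below 3000. In KO at 6 h against 0 h they were 1 with a second quantile normalization, the groups alone, numbers from 3000 up or both arrays left out, and 0 within numbers below 3000. In KO at 24 h they were 0 with a second quantile normalization or both arrays left out. In the difference of 6 h responses they were 0 with a second quantile normalization, all rows, the groups alone or either number class.

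Rows that passed, averaged over times, were 88, and 226 with array weights, 3 within numbers from 3000 up and 38 without both arrays. At 0 h they were 23, and 14 with a second quantile normalization, 188 with array weights, 0 with the groups alone, 1 and 0 within the lower and higher numbers and 9 without both arrays. At 6 h they were 513, and 1025 with array weights, 0 with the groups alone, and 1660 and 0 within the lower and higher numbers. At 24 h they were 4, and 12 with all rows, 1 with the groups alone and 9 with the number as a block. In KO at 6 h against 0 h they were 1172, and 1856 with array weights, 661 with the groups alone, 1 within numbers below 3000 and 631 without both arrays; in KO at 24 h 2249, and 1425 without both arrays. In WT at 6 h they were 0, and 1 and 6 within the lower and higher numbers. In WT at 24 h they were 7, and 210 with a second quantile normalization, 3 with arrays at one median, 4 with all rows, 0 with robust eBayes, 164 with array weights, 2 with the groups alone, 390 within numbers from 3000 up and 0 without both arrays. In the difference of 6 h responses they were 172, and 79 with all rows, 95 with robust eBayes, 864 with array weights, 72 with the groups alone, 0 within numbers from 3000 up and 304 without both arrays; for 24 h 0, and 9 with array weights and 5 without both arrays.

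With each array left out in turn, members that passed ran from 1 to 2 averaged over times, 1 to 2 at 0 h, 0 to 0 at 6 h and at 24 h, 1 to 2 and 0 to 1 in KO at 6 h and 24 h, 0 to 0 in WT at both times, and 0 to 2 and 0 to 0 in the difference of responses at 6 h and 24 h. Rows ran from 44 to 322 averaged over times, 5 to 59 at 0 h, 16 to 1068 at 6 h, 1 to 6 at 24 h, 159 to 1685 and 1029 to 2610 in KO at 6 h and 24 h, 0 to 0 and 0 to 135 in WT, and 2 to 749 and 0 to 32 in the difference of responses.

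The replicate number did not pair arrays: of 45 pairs with the same number 9 had a correlation of deviations over 0.1, the median was -0.0241 against 0.011 for different numbers, and 4 of 18 arrays correlated best with their own number. With the replicate block, rows were 69 averaged over times, 8 at 0 h, 314 at 6 h, 4 at 24 h, 926 and 2038 in KO, 0 and 0 in WT, and 49 and 0 in the difference of responses; members were the same in number, with the exception of 1 in KO at 6 h, where Ctss had 0.81 (adjusted p = 0.0542).

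Some values that did not pass turned sign. H2-Ab1 averaged over times (-0.02) was 0.02 with the number as a block, 0.11 within numbers from 3000 up and 0.03 without both arrays, and at 6 h (0.08) it was -0.05 within numbers below 3000. H2-DMa at 0 h was 0.0025 within numbers from 3000 up. With the number as a block, H2-DMa was -0.0013 and Adgre1 -0.01 in KO at 6 h, and H2-DMa 0.06 in WT at 24 h and -0.05 in the difference of 6 h responses. Within numbers below 3000, KO changes at 6 h were -0.04 for Cd207, -0.03 for H2-Aa, -0.06 for H2-DMa and -0.20 for Adgre1, WT changes at 6 h were -0.05 for H2-DMa and -0.20 for Csf1r, and the differences of these responses were -0.01 for H2-DMa and -0.07 for Adgre1. Within numbers from 3000 up, WT changes at 6 h were 0.38 for Ctss, 0.17 for H2-Aa, 0.14 for H2-Ab1 and 0.09 for H2-Eb1, WT changes at 24 h were 0.00028 for H2-Eb1, 0.16 for H2-DMa and 0.12 for Csf1r, the KO change at 24 h was 0.11 for Cd207, and the difference of 6 h responses was -0.22 for H2-DMa. Without both arrays, KO changes at 6 h were -0.08 for H2-DMa and -0.07 for Adgre1, WT changes at 6 h were -0.07 for H2-DMa and -0.26 for Csf1r, and the difference of 6 h responses was -0.0039 for H2-DMa. With array weights the WT change of Csf1r at 6 h was -0.13. With each array left out in turn, values that turned sign ran from -0.01 to 0.14 for H2-Aa, -0.09 to 0.08 for H2-Ab1 and -0.07 to 0.02 for H2-DMa averaged over times, -0.28 to 0.01 for H2-DMa at 0 h and -0.02 to 0.27 for H2-Ab1 at 6 h. KO changes ran from -0.08 to 0.18 for H2-DMa and -0.07 to 0.30 for Adgre1 at 6 h and -0.38 to 0.11 for Cd207 at 24 h. WT changes at 6 h ran from -0.31 to 0.01 for Ctss, -0.21 to 0.09 for H2-Ab1, -0.07 to 0.15 for H2-DMa, -0.26 to 0.19 for Csf1r and -0.29 to 0.10 for Adgre1. The difference of 6 h responses ran from -0.13 to 0.15 for H2-DMa.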
